A study of Mus musculus with 6 samples.

Results

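Kit ligand (Kitl) and its receptor Kit were described together as a ligand and receptor pair of the fetal gonad. Members were the probe sets annotated to exactly 1 of these genes. Each had 1, so the pair made up 2 of the 19937 genes measured. Sox9 mutant gonads carried the genotype Sox9flox/flox; Sf1:creTr/+, floxed Sox9 alleles cut by a Cre recombinase under regulatory sequence of Sf1 (Nr5a1). They were set against gonads labelled wildtype. Both groups came from E13.5 embryos of a mixed C57BL6/J and 129 background, and the mesonephros had been removed. Each group had 3 Affymetrix arrays. A mutant array read a pool of 12 gonads and a wild-type array a pool of 6, so pool size went with genotype, and no group is labelled as carrying Cre alone or floxed alleles alone. The labels give no embryo sex, litter or batch. P-values therefore measure the spread between these pools, which may be partly technical. Arrays keep the label numbers, 3, 4 and 6 for the mutant and 1, 2 and 5 for wild type. Sf1 is active in somatic cells of the gonad, so the deletion is aimed at those cells and not at germ cells.

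KITL is a membrane-anchored growth factor, made by supporting cells of the gonad and by other stromal and endothelial cells, that can also be shed in soluble form. It binds KIT, a receptor tyrosine kinase of the class III family, on germ cells, blood progenitors, mast cells and melanocytes. Binding pairs receptors, which phosphorylate each other and recruit adaptors of the phosphoinositide kinase and RAS to ERK pathways. In the mouse embryo the pair supports the survival, movement and proliferation of primordial germ cells, and after birth it acts on spermatogonia and growing oocytes.

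All values are deposited log2 values, on which 1 unit is a 2-fold change, and a value of 6.67 was taken as the mark of background (the 95th percentile of 1208 olfactory and vomeronasal receptor probe sets). Differences are mutant minus wild type. A gene was called at an adjusted p under 0.05 in limma, which tested 28187 probe sets. The targeted gene Sox9 measured 7.52, 7.78 and 7.60 on mutant arrays 3, 4 and 6, and 8.82, 8.81 and 9.20 on wild-type arrays 1, 2 and 5. It fell by 1.31 ± 0.14 (SE; limma adjusted p = 0.00124). Whether its probe set reads the deleted exons is not given in the labels. Wild type 5 stood apart by the liver genes Afp and Alb, at 11.26 and 11.42, where the other 5 arrays lay between 5.60 and 6.60 for both. Mutant 4 held more of the Sertoli cell genes than the other mutants, with a list mean of 8.35 against 7.27 on mutant 3 and 7.26 on mutant 6.

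Kitl, the ligand, was higher in the mutant. It measured 11.03, 10.99 and 11.36 on mutant arrays 3, 4 and 6, and 9.51, 9.15 and 9.18 on wild-type arrays 1, 2 and 5. The 3 mutant values lay close together and all exceeded the wild-type values, with a gap of 1.48 between the lowest mutant and the highest wild-type array. The means were 11.13 ± 0.20 in the mutant and 9.28 ± 0.20 in wild type (SD, n = 3 each). The difference was 1.85 ± 0.15 log2 (SE; 95% interval 1.52 to 2.19; limma adjusted p = 0.000323), a 3.61-fold rise. Among all 19937 genes 2.64% were called higher, and Kitl ranked 38 by size of increase. Its mean exceeded 97.9% of all genes in the mutant and 81.6% in wild type, a position within this array's values and not a transcript count. The single probe set sums over the gene, so membrane-anchored and soluble splice forms cannot be told apart. In pooled gonads a change in the number of Kitl-making cells and a change in RNA per cell cannot be told apart either.

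Kit, the receptor, differed by less and did not pass the threshold. It measured 10.22, 10.38 and 10.57 on mutant arrays 3, 4 and 6, and 9.90, 9.59 and 10.14 on wild-type arrays 1, 2 and 5. Mutant 6 was the highest and wild type 2 the lowest, and the groups did not overlap, though mutant 3 lay only 0.07 above wild type 5. Of all genes, 12.1% had every mutant value above every wild-type value. The means were 10.39 ± 0.18 in the mutant and 9.88 ± 0.27 in wild type (SD, n = 3 each), a difference of 0.51 ± 0.16 log2 (SE; 95% interval 0.15 to 0.87, unadjusted; limma adjusted p = 0.116), or 1.42-fold. With label numbers 5 and 6 as a term, a split that no label names as a batch, Kit passed (limma adjusted p = 0.0337, difference 0.51). Within numbers 1 to 4 the difference was 0.55 and between mutant 6 and wild type 5 it was 0.43. For Kitl the same splits gave 1.68 and 2.18. Without wild type 5, Kit differed by 0.64 (adjusted p = 0.0750) and Kitl by 1.80 (adjusted p = 0.00242). Kit differed by 0.37 without wild type 2 (adjusted p = 0.274).

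**Figure D1:**
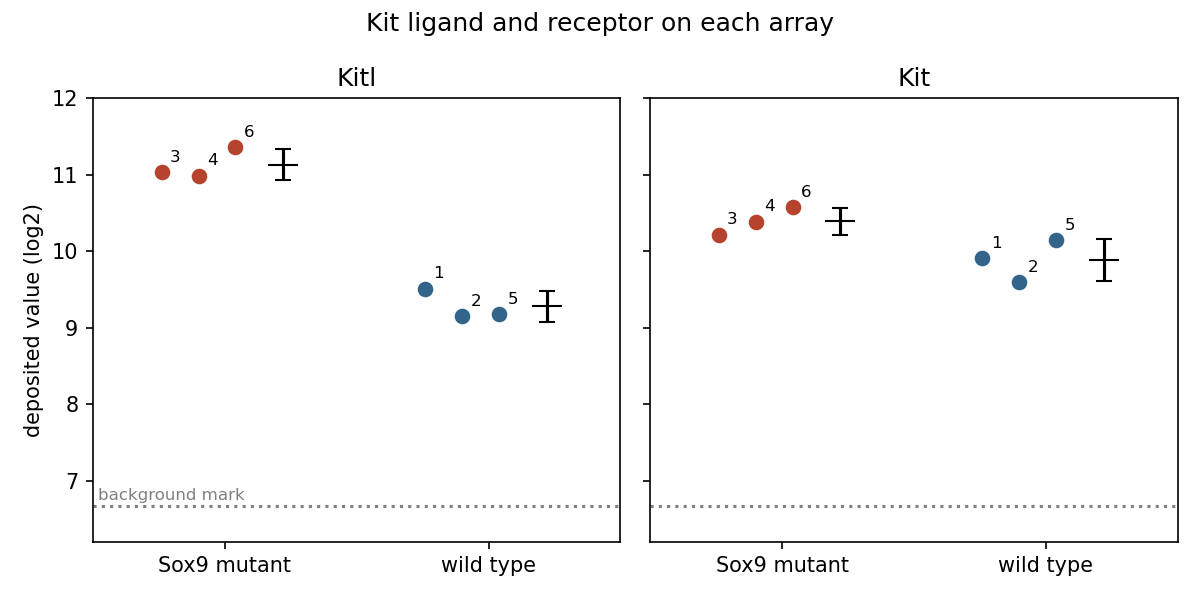
Deposited log2 values of Kitl (left) and Kit (right) on each array, Sox9 mutant in red and wild type in blue, with label numbers beside the points, the mean ± SD of 3 arrays in black and the background mark of 6.67 dotted. The mutant Kitl values of 10.99 to 11.36 stand well above the wild-type values of 9.15 to 9.51, whereas the Kit groups are separated by 0.07.

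The annotated start regions of both genes are shown because the ligand differed by more than the receptor on the same arrays. A link of their letters to either difference was not tested. In RefSeq's GRCm38.p6 table Kitl lies on chromosome 10 from 100015615 to 100100416 and Kit on chromosome 5 from 75574987 to 75656722. The 250 bases before each listed transcript start were chr10:100015571-100015820, plus strand, for Kitl and chr5:75574737-75574986, plus strand, for Kit. The Kit window is the first of 2 listed, and most of the Kitl window lies within the gene's annotated span, upstream of the listed start. Capitals mark TATAAA and GGGCGG on either strand.
Kitl: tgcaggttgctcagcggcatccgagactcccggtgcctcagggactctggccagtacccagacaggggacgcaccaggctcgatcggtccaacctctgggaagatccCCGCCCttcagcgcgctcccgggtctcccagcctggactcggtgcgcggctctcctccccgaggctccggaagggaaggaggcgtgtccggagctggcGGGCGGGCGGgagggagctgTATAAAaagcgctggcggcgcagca
Kit: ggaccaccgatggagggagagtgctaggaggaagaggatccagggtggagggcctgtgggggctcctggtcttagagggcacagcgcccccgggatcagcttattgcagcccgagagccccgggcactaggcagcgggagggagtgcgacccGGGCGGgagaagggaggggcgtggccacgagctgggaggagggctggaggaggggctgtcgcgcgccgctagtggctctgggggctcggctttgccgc
Both windows were rich in G and C, at 69.2% for Kitl and 70.8% for Kit, where the median of 32851 windows was 52.4%. The letters TATAAA stood once in the Kitl window, 25 to 20 bases before the start, and in 12.4% of all windows, and were not among the Kit letters. GGGCGG occurred 3 times in the Kitl window, with 2 of the matches overlapping, once in the Kit window, and in 32.7% of all windows. CCAAT (33.8% of windows), the E-box CANNTG (66.2%), the SOX letters AACAAT (9.42%), GATAA (22.6%) and the forkhead letters TGTTTA (12.0%), each sought on both strands, were in neither window. These matches describe letters in a short window only.

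The genotype difference was also compared between ligand and receptor on the same arrays. Kitl minus Kit was 0.82, 0.61 and 0.79 log2 on mutant arrays 3, 4 and 6, and -0.40, -0.45 and -0.96 on wild-type arrays 1, 2 and 5. Levels of different probe sets cannot be ranked, so the sign has no meaning and only the shift between groups is read. The 3 mutant arrays lay together above the 3 wild-type arrays. The means were 0.74 ± 0.12 in the mutant and -0.60 ± 0.31 in wild type (SD, n = 3 each). The shift was 1.34 log2, so Kitl gained 2.53-fold on Kit, and the groups did not overlap (exact permutation test, 2-sided, p = 0.10, the smallest that 3 against 3 arrays can give). Wild type 5 was lowest, and without it the shift was 1.16.

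Kit was also set against genes that mark germ cells of either sex. Ddx4, a germ cell RNA helicase, averaged 11.09 ± 0.03 in the mutant and 10.91 ± 0.04 in wild type (SD, n = 3 each), a difference of 0.18 (limma adjusted p = 0.409). Dazl, a germ cell RNA-binding protein, averaged 11.66 ± 0.03 in the mutant and 11.35 ± 0.15 in wild type, a difference of 0.31 (adjusted p = 0.183). In the list of 12 general germ cell genes, 0 rose, Dnd1 fell by 0.83, and 11 did not pass, where 2.64% of all genes were called higher and 4.3% lower. Its median difference was 0.23, where that of all genes was 0.00. The call of Dnd1, which protects germ cell transcripts, was lost without wild type 1, 2 or 5 or mutant 3 or 4 (adjusted p up to 0.167). Mean levels of the list spanned 8.87 to 8.88 over mutant arrays and 8.54 to 8.95 over wild-type arrays, lowest on wild type 5.

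Taken relative to the mean of the 11 general germ cell genes above background, Kit stood at 1.01, 1.19 and 1.37 on mutant arrays 3, 4 and 6, and at 0.80, 0.31 and 1.31 on wild-type arrays 1, 2 and 5. These groups overlapped, since wild type 5 exceeded mutants 3 and 4. The difference was 0.38 log2 (exact permutation test, 2-sided, p = 0.30), and that of the germ cell genes themselves was 0.12 (p = 0.50). Without wild type 5 the difference of Kit from the germ cell genes was 0.64, and without wild type 2 it was 0.14. The size of this difference therefore rested on single wild-type arrays.

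**Figure D2:**
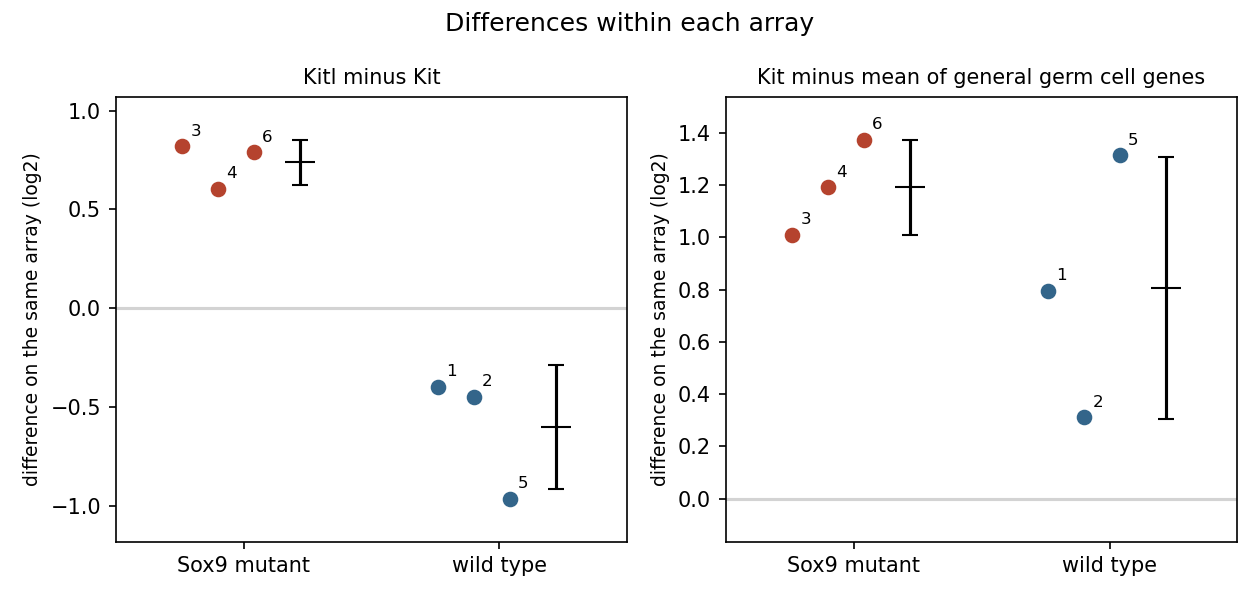
Differences in log2 value within each array, Kitl minus Kit (left) and Kit minus the mean of 11 general germ cell genes (right), Sox9 mutant in red and wild type in blue, with label numbers and the mean ± SD of 3 arrays. Kitl minus Kit runs from 0.61 to 0.82 in the mutant and from -0.96 to -0.40 in wild type without overlap, while Kit relative to germ cell genes overlaps through wild type 5 at 1.31.

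Lists of germ cell stages gave calls in both directions, where 2.64% of all genes were called higher and 4.3% lower. Among 11 measured meiotic genes 6 rose and 0 fell (median 1.96), among them Stra8, which licenses meiotic entry, at 8.47 ± 0.57 in the mutant and 5.07 ± 0.39 in wild type, and Meioc, which prolongs the meiotic programme, at 9.46 ± 0.99 in the mutant and 5.36 ± 0.65 in wild type (SD, n = 3 each; limma adjusted p = 0.000369 for Stra8 and 0.00147 for Meioc). Of 13 pluripotency and early germ cell genes 4 fell and 1 rose (median -0.58), and of 10 male fetal germ cell genes 4 fell and 0 rose (median -0.58). The 4 pluripotency falls were 2 without wild type 1, 2 or 5, and the 4 male falls were 1 without wild type 1 and 2 without mutant 3. The mean of the meiotic list was 9.29, 8.55 and 7.79 on mutant arrays 3, 4 and 6, so it was highest on mutant 3, where Kit was the lowest of the mutants at 10.22, and lowest on mutant 6, where Kit was highest at 10.57. In wild type the meiotic mean was 6.89, 6.65 and 6.27 on arrays 1, 2 and 5. With 3 arrays a group this order was not tested.

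Kitl was higher in the mutant, as were most listed genes of the supporting cells of the ovary. Of 12 pregranulosa genes 11 rose and 0 fell (median 1.33), led by Fst, which binds activin, at 10.63 ± 0.29 in the mutant and 7.01 ± 0.27 in wild type (SD, n = 3 each; limma adjusted p = 0.000188). Of 14 Sertoli cell genes 0 rose and 11 fell (median -2.13), and each of 6 measured Leydig genes fell (median -2.84). The Sertoli list and its falls include Sox9, the targeted gene. Over all genes 2.64% were called higher and 4.3% lower. Mean levels of the pregranulosa list were 9.02 to 9.21 on mutant arrays and 7.53 to 7.67 on wild-type arrays. Mean levels of the Sertoli list were 7.26 to 8.35 on mutant arrays and 9.75 to 9.80 on wild-type arrays. Mutant 4 had the highest Sertoli mean of the mutants and the lowest pregranulosa mean, at 9.02. Its Kitl value was also the lowest, at 10.99, just below mutant 3 at 11.03. Kitl was highest on mutant 6, at 11.36, where the Sertoli mean of 7.26 was close to the 7.27 of mutant 3. This order of the mutant arrays was not tested. Without mutant 4 Kitl differed by 1.92. The part of these lists in the rise of Kitl was not tested.

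Lists for other cells that the gonad samples could hold were read as well. Endothelial cells make KITL, and of 7 endothelial genes 0 were called in limma and 4 had an unadjusted p under 0.05, beside 21.7% of all genes (median -0.28). The 2 brightest were the receptor gene Kdr, at 9.78 in the mutant and 9.40 in wild type, and the cadherin gene Cdh5, at 9.06 in the mutant and 9.34 in wild type. List means lay between 8.37 and 8.59 on mutant arrays and between 8.60 and 8.76 on wild-type arrays. Mast cells carry KIT, and 1 of 8 mast cell genes, Hdc, lay above the background mark. Hdc differed by -0.42 and did not pass (limma adjusted p = 0.0837). The list spanned 6.07 to 6.15 on mutant arrays and 5.92 to 6.00 on wild-type arrays. An unadjusted p under 0.05 was found for 2 of its genes, Hdc and Cpa3, which went opposite ways. Cpa3, a mast cell carboxypeptidase, rose by 0.80 with both group means below the mark, 6.16 in the mutant and 5.36 in wild type. Its call was lost without wild type 1, 2 or 5 or mutant 3 or 6 (adjusted p up to 0.134). Of 7 melanocyte genes 0 were called, 2 had an unadjusted p under 0.05 and 2 lay above the mark, with list means of 6.30 to 6.46 on mutant arrays and 6.15 to 6.26 on wild-type arrays. Among 8 measured blood progenitor genes Gata2 rose and 0 fell, beside 2.64% of all genes called higher and 4.3% lower. The list median was -0.18, and 4 genes had an unadjusted p under 0.05. Besides Gata2 these were Spi1, Cd34 and Lmo2, which did not pass and went the other way, at -0.41, -0.38 and -0.33. List means were 7.53 to 7.59 on mutant arrays and 7.41 to 7.64 on wild-type arrays. Of 5 measured erythroid genes Alas2 fell and 0 rose, with list means of 8.04 to 8.25 on mutant arrays and 8.29 to 8.59 on wild-type arrays, and the fall was lost when any 1 array was left out or with quantile normalization. Of 5 measured mesonephric genes Emx2 and Gata3 rose and Lhx1 fell, beside 6.94% of all genes called in either direction. Pax2 and Pax8 did not pass, at 0.03 and 0.44 (limma adjusted p = 0.936 and 0.124). List means were 7.60 to 7.73 on mutant arrays and 7.15 to 7.26 on wild-type arrays. The fall of Lhx1 was lost without wild type 1 or 2 or mutant 3. Alas2, Emx2, Gata3 and Lhx1 are named as called members of their lists, and Spi1, Cd34 and Lmo2 by unadjusted p. Hdc is named as the mast cell gene above the mark, and Pax2 and Pax8 as the other mesonephric genes. All of these were named after their values were seen. The part of these lists in the values of Kitl and Kit was not tested.

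Regulators of Kit transcription known from other settings included 2 genes that rose and 1 that fell among 12, beside 2.64% called higher and 4.3% called lower over all genes. Gata2, a zinc finger factor that activates Kit in mouse blood and mast cells, measured 9.23, 8.87 and 9.05 on mutant arrays 3, 4 and 6, and 7.18, 7.33 and 6.99 on wild-type arrays 1, 2 and 5. It rose by 1.88 ± 0.14 (SE; limma adjusted p = 0.000283), with no overlap between groups. Sohlh2, a helix-loop-helix factor that promotes Kit in mouse spermatogonia and oocytes, measured 9.72, 9.91 and 9.66 in the mutant and 9.19, 8.90 and 9.29 in wild type on the same array order. It rose by 0.64 ± 0.14 (adjusted p = 0.0272), and this call was lost without wild type 1 or 2 or mutant 3 or 4 (adjusted p up to 0.0996). Etv1, an ETS factor that acts with KIT in human gastrointestinal stromal tumours, fell by 1.36 ± 0.21 (adjusted p = 0.00579). Gata2 is counted among the blood progenitor genes too, and Etv1 among the ERK readouts. The median of the list was 0.02, but activators and repressors were not separated, so it gives no net direction. Germ cell and somatic sources of the Gata2 signal cannot be told apart in pooled gonads.

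Of the 5 class III receptors 0 rose and 2 fell, beside 4.3% of all genes called lower and 2.64% called higher. Pdgfrb, a platelet-derived growth factor receptor of mesenchymal cells, fell by 1.16 ± 0.13 and Pdgfra, its partner receptor, fell by 0.81 ± 0.13 (SE; limma adjusted p = 0.00141 for Pdgfrb and 0.00671 for Pdgfra). Of the 8 ligands of these receptors Kitl alone rose, and Pdgfb, a ligand of both, fell by 0.53 ± 0.11, a call lost without wild type 1 or 2 or mutant 3, 4 or 6 (adjusted p up to 0.117). The other 6 ligands lay between -0.21 and 0.38.

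Downstream of KIT most listed components did not pass, while several readouts of ERK were lower. Of 40 measured adaptors, kinases and other effectors, of 48 listed, 4 rose, 1 fell and 35 did not pass (median -0.10). For comparison, 6.94% of all genes were called in either direction, 2.64% higher and 4.3% lower. An unadjusted p under 0.05 was found for 16 of the 40, beside 21.7% of all genes. The 4 largest called differences were 1.03 for Plcg2, a phospholipase, 0.71 for Braf and 0.68 for Pik3r1, the regulatory subunit of the phosphoinositide kinase, and -1.19 for Pik3cd, one of its catalytic subunits (limma adjusted p = 0.00676, 0.00977, 0.0116 and 0.00456). The rises of Plcg2, Braf and Pik3r1 were not called when both wild type 5 and mutant 4 were left out (adjusted p = 0.0507, 0.103 and 0.112), where the 4 rises became 0. The 1 fall became up to 6 where dim probe sets were left out.

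Of 16 measured negative regulators 0 rose and 5 fell (median -0.16), where 4.3% of all genes were called lower. Spry4, an inhibitor of RAS signalling, fell by 0.99 ± 0.11 and Dok1, a docking protein that damps kinase signals, fell by 0.91 ± 0.16 (SE; limma adjusted p = 0.00136 for Spry4 and 0.0136 for Dok1). Leaving out wild type 1 or mutant 3 reduced these 5 falls to 1, leaving out wild type 2 or 5 to 2, and leaving out mutant 4 or 6 to 4. The call of Dok1 was lost without wild type 1 or 5 or mutant 3 (adjusted p up to 0.0718).

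Of 13 genes that read out ERK activity, whichever receptor starts it, 5 fell and 1 rose (median -0.26), beside 4.3% of all genes called lower and 2.64% called higher. The background mark was exceeded by 10 of the 13, and not by Egr1, Fosl1 and Ier3. Phlda1, named after its value was seen, was higher by 0.59 and did not pass (limma adjusted p = 0.0700). Dusp6, a phosphatase of ERK that ERK signalling induces, measured 7.88, 8.69 and 8.58 on mutant arrays 3, 4 and 6, and 9.69, 9.47 and 9.81 on wild-type arrays 1, 2 and 5. Every mutant value lay below every wild-type value, as in 16.6% of all genes, and Dusp6 fell by 1.27 ± 0.21 (SE; limma adjusted p = 0.00785). Dusp4, a related phosphatase, fell by 1.38, and the ETS factors Etv1 and Etv5 fell by 1.36 and fell by 1.01, the last not called when both wild type 5 and mutant 4 were left out (adjusted p = 0.0837). Etv1 and Etv5 have 2 probe sets each, and these values come from the brighter. Both were still called with the mean of all probe sets of a gene. Spry4, counted among the negative regulators too, completed the 5. Ccnd1, a cyclin of the G1 phase, rose by 0.63, a call lost without wild type 1, 2 or 5 or mutant 3 or 4 (adjusted p up to 0.140). The count of 5 falls lay between 4 and 6 over all alternatives. Kitl was higher on the arrays on which these 5 readouts were lower, and which cells carried either was not tested.

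**Figure D3:**
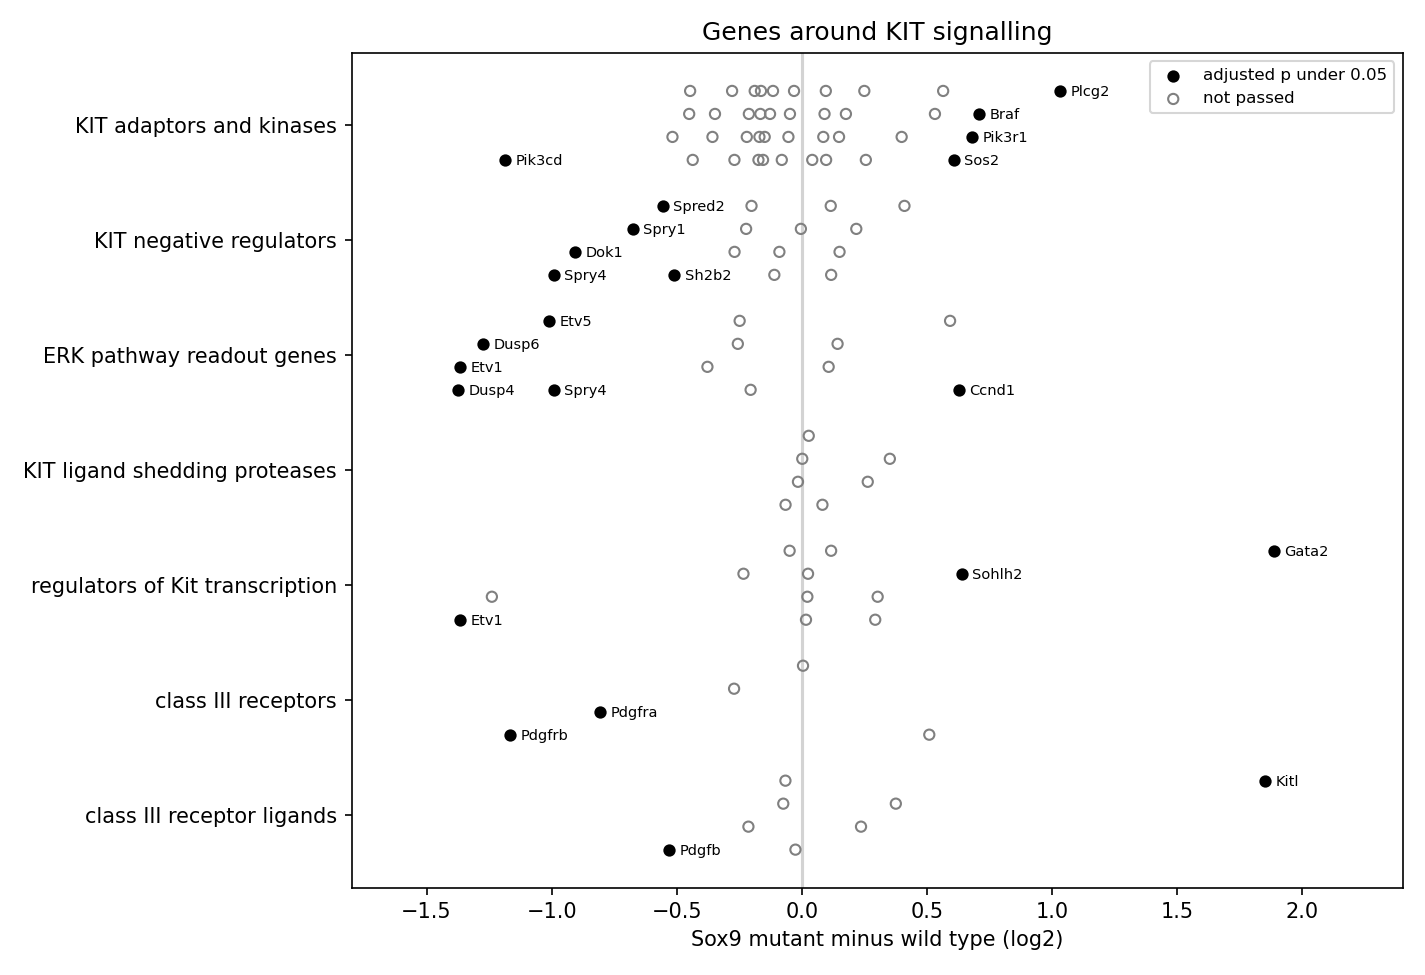
Difference between Sox9 mutant and wild type in log2 for each measured gene of 7 lists around KIT signalling; filled points passed an adjusted p of 0.05 and are named, open points did not, and the height within a list has no meaning. Kitl and Gata2 lie furthest right, at 1.85 and 1.88, the ERK readouts Dusp4, Etv1 and Dusp6 near the left edge, and the shedding proteases between -0.07 and 0.35.

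Proteases that release KITL from the membrane were not called in any direction. Of 7 measured genes 0 passed in limma and 1 had an unadjusted p under 0.05 (median 0.03). Over all genes 6.94% were called and 21.7% had an unadjusted p under 0.05, so 0 calls among 7 genes says little. The brightest were Adam10, at 11.18 in the mutant and 10.83 in wild type, and Mmp14, at 10.97 in the mutant and 10.88 in wild type (adjusted p = 0.199 for Adam10 and 0.824 for Mmp14). Such values say nothing of protease activity.

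Chromosomal neighbours were read beside the 2.64% of all genes called higher and 4.3% called lower. Among the 5 nearest measured genes on each side of Kitl, 0 rose, 1 fell and 9 did not pass, from -1.27 to 0.16. The faller was Dusp6, described above. Around Kit, 1 of 10 rose, 1 fell and 8 did not pass, from -0.81 to 0.57. Pdgfra, next to Kit upstream, was the faller, and Clock, a circadian transcription factor, rose by 0.57, a call lost when any 1 array was left out (limma adjusted p up to 0.125).

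Genes with the most similar profiles were sought among 13001 others with a mean above background, by the root mean square difference of log2 values centred on each gene's own mean over the 6 arrays. They were chosen by these values, so they are described with no test. Nearest to Kitl was Sulf1, a sulfatase that trims heparan sulfate, at 11.02, 10.90 and 11.43 on mutant arrays 3, 4 and 6, and 9.37, 9.17 and 9.37 on wild-type arrays 1, 2 and 5 (root mean square difference 0.11 log2). Then came Arhgap29, a GTPase activator (0.11), the potassium channel gene Kcnd2 (0.13), the tyrosine phosphatase gene Ptpn4 (0.13) and Podxl, a cell surface sialomucin (0.13). Their differences between mutant and wild type ran from 1.65 to 1.92. Nearest to Kit was Uchl3, a ubiquitin hydrolase, at 10.43, 10.53 and 10.79 on mutant arrays 3, 4 and 6, and 10.07, 9.92 and 10.31 on wild-type arrays 1, 2 and 5 (0.06). It was followed by the kinase gene Stk26 (0.08), the actin bundler gene Pls1 (0.09), the replication origin gene Orc1 (0.09) and the lactate transporter gene Slc16a1 (0.09), with differences of 0.40 to 0.66. In each of these 5, as in Kit, mutant 6 was the highest array and wild type 2 the lowest.

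**Figure D4:**
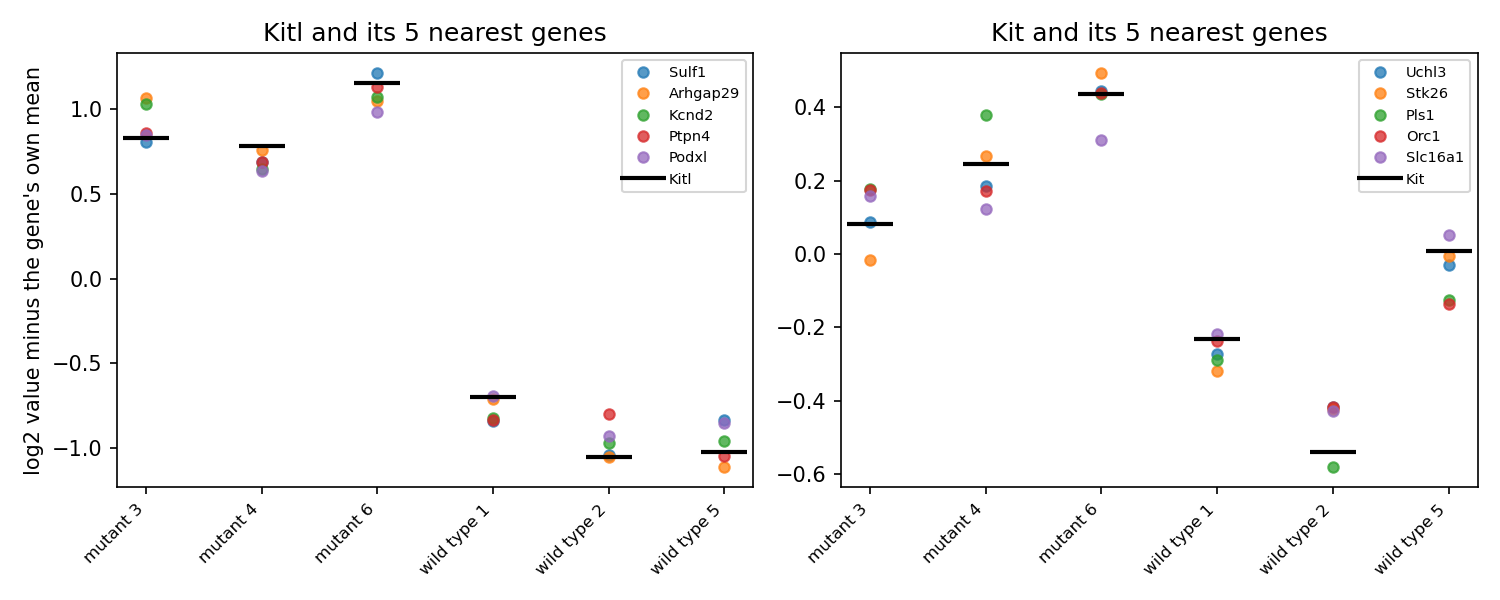
Log2 values minus each gene's own mean over the 6 arrays, for Kitl (left, black bars) and Kit (right, black bars) with the 5 genes nearest to each (coloured points), mutant arrays left of wild-type arrays. The Kitl set splits by genotype with small spread within groups, while in the Kit set mutant 6 is highest and wild type 2 lowest. Wild type 5 lies near mutant 3 for Kit, Uchl3, Stk26 and Slc16a1, but further below it for Pls1 and Orc1.

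Both differences kept their direction under every setting tried. Over 16 alternatives Kitl lay between 1.68 and 1.97 and was called each time (limma adjusted p from 4.91e-05 to 0.00386). Kit lay between 0.37 and 0.64 and was called in 1 of the 16, with numbers 5 and 6 as a term.

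**Figure D5:**
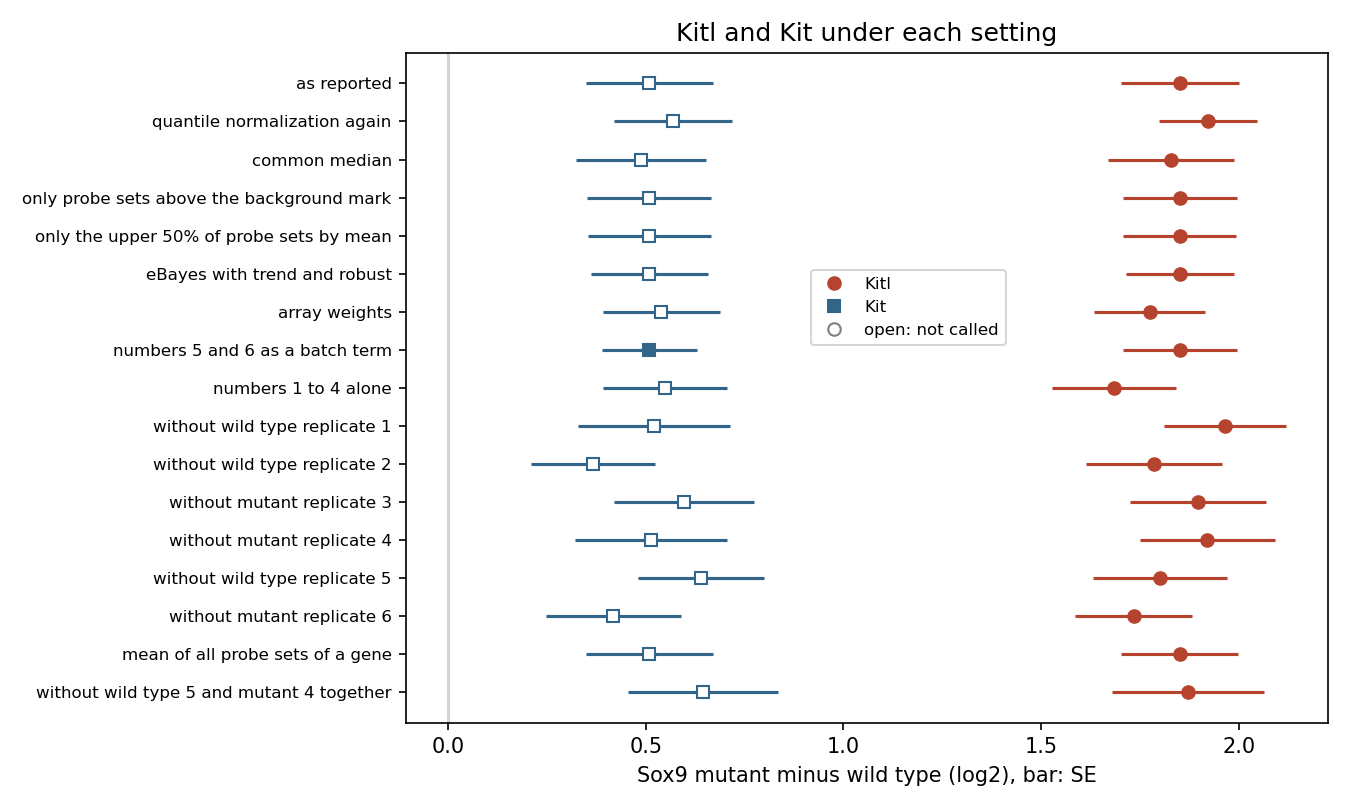
Difference between Sox9 mutant and wild type in log2 (horizontal axis, bars: SE) for Kitl (red circles) and Kit (blue squares) as reported and under each of 16 alternatives (vertical axis); filled symbols had an adjusted p under 0.05. Kitl stays between 1.68 and 1.97 and is filled throughout, while Kit stays between 0.37 and 0.64 and is filled once.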

How the data were processed

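Gonadal RNA was labelled from 300 ng of total RNA per array, per the labels' protocols. The deposited log2 values are RMA output, per the submitters' processing notes; this method subtracts background, forces equal distributions on the arrays and merges probes into probe sets, so differences near background are compressed and a change in total RNA is hidden. Its version and settings: not given in the sources used here. Of 34760 rows, 6573 below the lowest annotated identifier were left out. Genes were named from the platform annotation where a probe set had 1 gene (21640 probe sets, 1321 with several genes, 5226 with none), and each gene was read from its brightest probe set. Groups came from the sample titles.

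Mutant arrays were set against wild-type arrays by 2-sided limma tests (version 3.58.1, R 4.3.3, moderated by eBayes), with Benjamini-Hochberg adjustment over 28187 probe sets. The fit was tested on simulated data with known changes. It called 26.9% of 1.5-fold, 89.6% of 2-fold and 100% of 4-fold changes. A true change of the size seen for Kit, 1.42-fold, could therefore often go uncalled. Within-array differences were compared by exact permutation over arrays. Members, gene lists and tests were chosen with earlier results of these data known. Named genes were the pair, Sox9, Ddx4 and Dazl, the largest called changes of a list, or its brightest genes where none was called, genes with the nearest profile, and chromosomal neighbours. Genes of cell type lists are given mostly as counts. Start windows are from RefSeq (GRCm38.p6), and matplotlib 3.10.9 drew the figures. The number of arrays limits the precision. Alternatives covered scaling, filters, variance models, array weights, a split by label number, and leaving out arrays.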

Additional observations from a re-analysis of the deposited data

How the results depend on the processing

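Kitl, Kit, the shift of Kitl against Kit and the difference of Kit from general germ cell genes kept their direction in each alternative run for them; the last 2 were not run with eBayes trend and robust, array weights or a batch term. Leaving out single arrays gave 1.73 to 1.97 for Kitl, 0.37 to 0.64 for Kit, 1.16 to 1.44 for the shift of Kitl against Kit and 0.14 to 0.64 for Kit against germ cell genes. Kit passed with numbers 5 and 6 as a batch term (0.51; limma adjusted p = 0.0337, over a range of 0.0337 to 0.274), where its SE was 0.12 and not 0.16. Of all genes 1384 were called; leaving out single arrays gave 595 to 1291, numbers 1 to 4 alone 897, and leaving out wild type 5 and mutant 4 together, chosen after seeing the data, 604, each with fewer arrays. Single calls were followed over the alternatives for 29 named genes outside the pair. Of these 23 were called, and 12 kept the call in each alternative that measured them. Alas2, Emx2, Gata3, Lhx1 and the genes of nearest profile were not among the 29. Mmp14 ran from -0.023 without mutant 6, a reversal, to 0.18 over single arrays left out; the cause was not tested. Among numbers 1 to 4 alone the calls of Pik3r1, Dok1, Pdgfb, Clock and Cpa3 also ended (adjusted p = 0.0617, 0.0697, 0.0581, 0.103 and 0.153), as did those of Dnd1 and Cpa3 with quantile normalization (0.0611 and 0.0750). No paired analysis was possible because the groups share no label number. Values near background limit the mast cell and melanocyte lists.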
